A study of Nothobranchius furzeri with 24 samples.

Results

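The 200 most abundant transcripts of the wild killifish brain were examined for their share of all reads and for their movement with age and sex. The members were chosen by their level: each gene's reads were scaled to the library's total of reads assigned to genes (RPM), genes were ranked by the median RPM over all fish, and the first 200 of 26739 were taken. That median is therefore given as a description only. No test between ages or sexes entered the choice, but a gene that changes with age can pass the border through the ages at which it is high. The last gene inside was RPS19 with a median of 554.8 RPM, and the first outside was STMN2 with 554.4 RPM, so the border fell within a dense run of genes. At 39 dph 13 members, and at 108 dph 21, had a median below that of the last gene inside. All 200 passed the filter on low counts that left 19358 genes for testing, and the smallest count of any of them in any fish was 595 reads.

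Whole brains were taken from wild turquoise killifish (Nothobranchius furzeri), an annual fish of temporary African ponds, of the population A41 (strain MZM_A41). Each of 24 fish gave 1 poly(A) library, and each age (39, 73 or 108 days post hatch, dph) was represented by 8 fish, 4 of either sex. The fish were untreated and netted in ponds as the season went on, so a difference between ages cannot be told apart from one between catching dates. Their ages were estimates from the flooding of the ponds and from otoliths, and the values are averages over all cells of the brain.

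A brain devotes its transcripts to maintaining electrical signalling and the membranes that carry it. Abundant transcripts there commonly encode ribosomal proteins, which build the translation machinery, enzymes and pumps that make and spend ATP, proteins of the synaptic vesicle cycle and of the cytoskeleton, and the structural proteins of myelin. In fish, glial cells of the radial type persist in the adult brain and express GFAP, and ependymins are secreted proteins of the fluid around the brain.

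Libraries held a median of 17954316 assigned reads. Those of 39 dph female replicate 4 and 39 dph male replicate 4 were shallow, with 4595506 and 10019750 reads, and the other 22 held 14219725 to 19346170 reads. Markers of brain cells were found in every fish: summed over the matched loci, neuronal markers lay between 4389 and 5291 RPM, oligodendrocyte markers between 4569 and 10485 RPM and astroglial markers between 5163 and 9464 RPM. Markers of other tissues reached similar sums in some fish. The highest sums at 39, 73 and 108 dph were 1060, 3827 and 2479 RPM for blood. For the only matched pituitary locus, GH1, they were 3690, 4233 and 4312 RPM. Of 16 neuronal loci, 3 were higher and 7 lower at 108 than at 39 dph. Over all tested genes 19% were higher and 19% lower, the shares to set beside each list of markers or members. Of 6 vessel and meninges loci, 1 was higher and 5 lower, with sums of 182 to 265 RPM at 108 dph and 151 to 976 RPM at 39 dph, and both loci called COL1A2, a collagen chain, were lower (log2 fold changes −3.13 and −2.81). The part of vessel, blood or pituitary cells in the members' values was not tested. Gene names were those of orthologues that the study lists, and 145 of the 200 members had one, against 38.0% of tested genes. The other 55 members are counted throughout and named by locus only where needed. The mapping kept 1 place per read, so members that share a name (10 loci under 5 names, such as the pair called MBP) are less certain than single copies.

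The members took 22.6% of all reads (median of 24 fish, lowest 20.7%, highest 24.4%). By age, the lowest, median and highest fish had 21.3, 22.4 and 23.3% at 39 dph, 21.9, 22.6 and 24.1% at 73 dph, and 20.7, 22.9 and 24.4% at 108 dph. The means were 22.5 ± 0.652, 22.6 ± 0.732 and 22.8 ± 1.34% (SD, n = 8 per age), so the ages overlapped throughout and their means lay within 1 SD of each other. The lowest and the highest fish of the whole series were both males of 108 dph, whose SD was 1.83 (n = 4). In females the share was 22.7 ± 0.608% and in males 22.6 ± 1.19% (SD, n = 12 each). No test was made of the share, since the members were chosen with results of these data known.

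**Figure D1:**
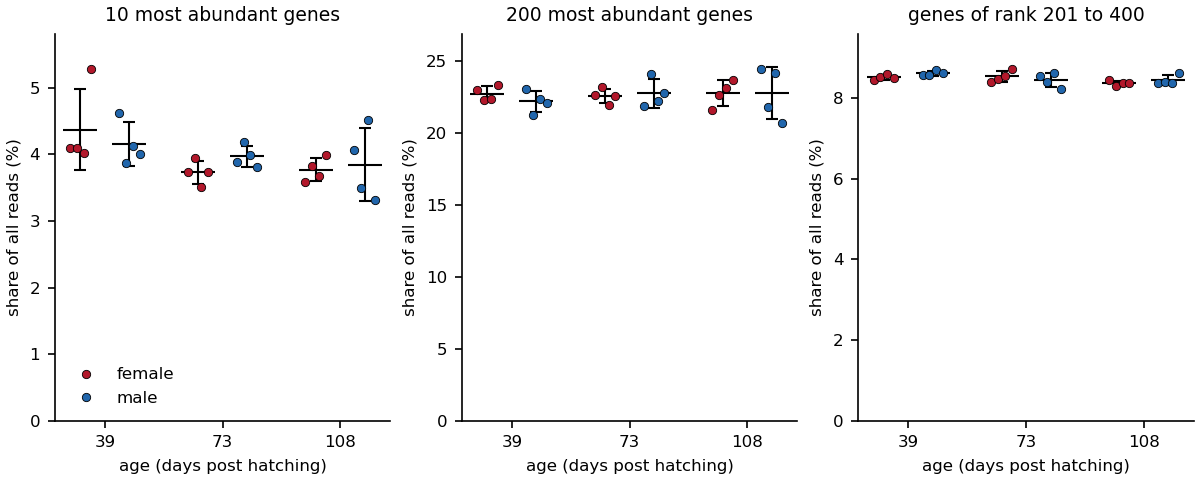
Percent of all assigned reads taken by the 10 most abundant genes (left), the 200 members (middle) and the next 200 genes (right), 1 point per fish, by age in days post hatch and by sex (red female, blue male), with the mean and SD of each 4 fish as bars. The members' shares run from 20.7 to 24.4% and the 3 ages overlap.

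Within that share the reads were unevenly divided. The gene of rank 1, the unnamed locus Nfu_g_1_019825, took 0.682 ± 0.0633% of reads at 108 dph and 0.898 ± 0.221% at 39 dph, and the 10 most abundant genes took 3.81 ± 0.377% at 108 dph and 4.26 ± 0.47% at 39 dph (SD, n = 8 each). The medians at 108 and 39 dph were 0.661 and 0.826% for rank 1 and 3.76 and 4.10% for the 10 genes. The shallowest library, 39 dph female replicate 4, had the highest share of both (1.44 and 5.28%). The 54 ribosomal protein genes, counted by orthologue name, took 6.01 ± 0.799% at 108 dph and 5.47 ± 0.245% at 39 dph. The remaining 146 members took 16.8 ± 0.766% and 17.0 ± 0.450% (SD, n = 8 each). The ribosomal share of single fish of 108 dph ran from 5.10 to 7.60%, wider than at 39 dph (5.07 to 5.81%). The next 200 genes in rank took 8.40 ± 0.0983% at 108 dph and 8.55 ± 0.0745% at 39 dph.

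The members were ranked over these same fish, so overlap with each fish's own leading genes is largely built in. Of each fish's own 200 most abundant genes, 174 to 190 (median 183) were members. Only 131 members were among the first 200 in every one of the 24 fish, and 307 genes were among the first 200 of at least 1 fish. Locus Nfu_g_1_019825 led in 22 fish. In 108 dph male replicate 1 the leader was EPDR1, an ependymin-related gene that the annotation calls EPD, and in 39 dph female replicate 4, the shallowest library, it was a locus outside the members. Divided by gene length (RPKM), the order shifted: 119 members were also among the first 200 by median RPKM, and the lowest member on that scale was the dynein heavy chain DYNC1H1 at rank 1913. Members were somewhat short, with a median of 2264.5 bases against 2668.5 for tested genes, and the ribosomal proteins had a median of 860.5 bases.

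Single members moved with age. Between 108 and 39 dph, 75 of the 200 members passed the test at a false discovery rate (FDR) of 0.05, which is 37.5%, against 38% of all tested genes. Of these, 32 (16%) were higher and 43 (21.5%) lower at 108 dph, against 19% of all genes in each direction. DESeq2 called 86 members (43%, against 39.7% of all genes), and 102 members had an unadjusted p below 0.05 (51%, against 46.7% of all genes). The split depended on how libraries were scaled. With total reads in place of TMM factors it was 45 higher and 34 lower, and with DESeq2's size factors 40 and 38. Among called members, 42.67% were higher with TMM factors, 56.96% with total reads and 51.28% with DESeq2's size factors. Among all called genes the shares were 50.05, 54.67 and 51.63% in that order, a smaller shift the same way. The median log2 fold change of all genes moved by at most 0.02. Most of the called changes were small, 65 under 1.5-fold, 6 between 1.5 and 2-fold and 4 above 2-fold. The last were 2% of members, against 3.69% of all tested genes. That share was 1% in the next 200 genes in rank and 1% in the 600 after those. It was 0.8% in the class of rank below these and 4.67% in the least abundant class. Members thus had a larger share above 2-fold than the genes closest to them in rank. The 4 members were FBRS, ARRDC3, JARID2 and HBG1, all higher at 108 dph. The ranking bears on these directions: of the 32 members called higher, 8 had a median at 39 dph below the border of 554.8 RPM, these 4 among them, and of the 43 called lower, 13 had one below it at 108 dph. The median absolute log2 fold change of the members was 0.16, against 0.25 over all tested genes. It was 0.19 in the next 200 genes, 0.18 in the 600 after those, 0.19 in the class below these and 0.27 in the least abundant class. Fish of 108 and 39 dph did not overlap at all in 15 members (7.5%), against 9.29% of tested genes.

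**Figure D2:**
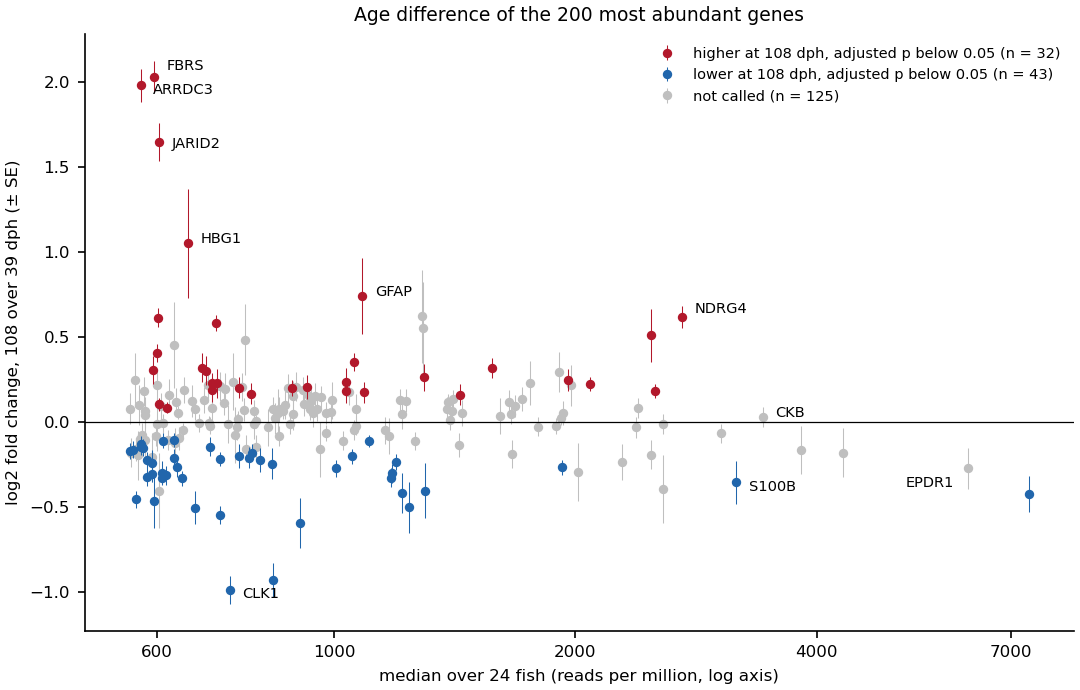
Log2 fold change of 108 over 39 dph with its standard error for each of the 200 members, against the median RPM over 24 fish on a log axis, with called members in red (32 higher) and blue (43 lower). The 4 members above 2-fold have medians of 656 RPM or less, and CLK1 fell furthest (-0.99).

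More members were called in the earlier interval. Between 73 and 39 dph, 39 members were called (19.5%, against 20.7% of all genes), 18 higher and 21 lower, against 10.4% and 10.3% of all genes. Between 108 and 73 dph there were 24 (12%, against 9.27%), 5 higher and 19 lower, against 4.27% and 5.01%. DESeq2 called 43 members in the earlier interval (21.5%, against 23.4% of all genes) and 31 in the later (15.5%, against 12%). Of the 43 members that fell by 108 dph, 15 had passed the test in the first interval alone, 10 in the second alone, 4 in both and 14 in neither. Of the 32 that rose, 9 passed in the first interval alone, 2 in the second alone, 3 upward in both (ARRDC3, AMD1 and PSAP), 2 upward and then downward (JARID2 and HMGB1), and 16 in neither. Neither split was made for all tested genes, whose calls were also more frequent in the earlier interval (20.7%, against 9.27% in the later). The 2 intervals share the fish of 73 dph, so their calls are not independent of each other. The count for the second interval varied most when 1 fish was left out, with 13 without 73 dph female replicate 4, 15 when 108 dph male replicate 2 was omitted and 33 for 108 dph male replicate 4.

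**Figure D3:**
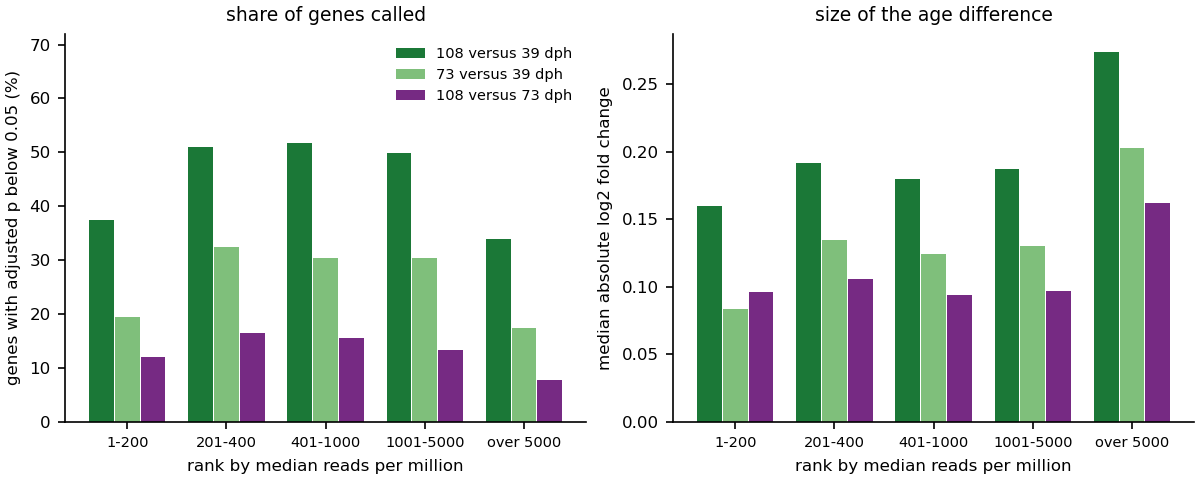
Percent of genes called at an FDR of 0.05 (left) and median absolute log2 fold change (right) in the 3 comparisons between ages, as bars for 5 classes of rank by median RPM. Between 108 and 39 dph 37.5% of ranks 1 to 200 were called, against 51.0% of the next 200 genes.

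Set beside the genes that follow them in abundance, 37.5% of the members (ranks 1 to 200) were called between 108 and 39 dph, against 51.0% of the next 200 genes and 51.7% of the 600 after those. The median SD of log2 values among fish of the same age and sex was 0.145 in the members, against 0.125 in the next 200 genes. These values describe the ranks, and no test of the difference was made. Across the 200 members the log2 fold change of 108 over 39 dph had a Spearman's rho of −0.25 with gene length, against 0.04 over all tested genes, and a Pearson's r of −0.06 with log2 length, over genes that are not independent replicates. The short ribosomal protein transcripts were among those above 0.

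Genes of the translation machinery were the largest group. Ribosomal protein genes were counted by orthologue name, which left out the member RP11-849F2.7 that the annotation calls RPL26. Of the 54 counted, 10 (18.5%, against 19% of all genes) were called higher at 108 than at 39 dph and none lower, and 44 did not pass. The fold change was above 0 for 51 of them, with a median log2 fold change of 0.12, against 0.00 for all genes. Over all tested ribosomal protein genes, 14 of 77 were higher and 1 lower. RPS2, of the small subunit, measured 1593, 1688 and 1787 RPM at 39 dph, 1947, 2090.6 and 2301 RPM at 73 dph and 1761, 2017 and 2459 RPM at 108 dph (lowest, median and highest of 8 fish). Its fish of 73 and 39 dph did not overlap, those of 108 and 39 dph did, and its log2 fold change of 108 over 39 dph was 0.24 ± 0.06 (SE; FDR 0.00413). RPL36, of the large subunit, showed the largest rise of the group, 0.30 ± 0.08 (FDR 0.00509). Its fish had 567, 659.5 and 974 RPM at 108 dph and 520.1, 547 and 648 RPM at 39 dph, and the top value was that of 108 dph male replicate 1. RPS25 rose by 0.26 ± 0.08 (FDR 0.012).

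The number of ribosomal protein calls was unstable. It was 16 with DESeq2's size factors, 18 with DESeq2 and 19 with total reads. Leaving out 1 fish moved it by more than 1.5 times in 10 of 24 cases. It was 24 without 108 dph female replicate 1, 22 without 108 dph male replicate 4 and 16 without each of 39 dph female replicate 1, 39 dph male replicate 1, 73 dph male replicate 2 and 73 dph male replicate 3. It was 5 without each of 108 dph male replicate 1, 39 dph male replicate 2 and 39 dph male replicate 3, and 4 without 108 dph female replicate 4. Between 46 and 53 of the fold changes stayed above 0 in these fits. The median was lowest, 0.07, without 108 dph male replicate 1, the fish with the largest ribosomal share (7.60%). Of 5 translation factor members 2 rose (against 19% of all genes), and over all 42 tested genes of the list 11 were higher and 9 lower. They were TPT1 (0.23 ± 0.06, FDR 0.0049), a translationally controlled protein, and the PABPC1 locus of rank 11, which encodes a poly(A) tail binding protein (0.18 ± 0.04, FDR 0.00182).

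Of 10 members in the lists of energy metabolism, 5 were called, all lower at 108 dph. Of all tested genes 38% were called and 19% were lower. With so few members per list, these counts describe single genes. Of 5 oxidative phosphorylation members, 3 fell between 39 and 108 dph, all of them genes of the catalytic head of mitochondrial ATP synthase. Over all tested genes of that list, 4 of 66 were higher and 23 lower. ATP5A1 measured 690.0, 723 and 774 RPM at 39 dph, 716, 770.1 and 789 RPM at 73 dph and 602, 625 and 697 RPM at 108 dph. All fish of 108 dph were below all of 73 dph and overlapped narrowly with those of 39 dph, with a log2 fold change of -0.22 ± 0.04 against 39 dph (FDR 1.86e-04) and -0.26 ± 0.04 against 73 dph (FDR 4.32e-04). The 2 loci called ATP5B fell by 0.20 and 0.16 on the log2 scale (FDR 5.71e-04 and 0.00998), and for all 3 genes the change from 39 to 73 dph did not pass (log2 fold changes 0.04, 0.02 and 0.01).

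Among 5 members of glycolysis and energy buffering, 2 fell (1 with other scalings) and 3 did not pass. ENO2, the enolase of neurons in mammals, measured 809.7, 849 and 938 RPM at 39 dph, 645, 699 and 782 RPM at 73 dph and 535, 586 and 731 RPM at 108 dph. Every fish of 108 dph was below every fish of 39 dph, and the log2 fold change was -0.55 ± 0.05 (FDR 3.71e-08), with a fall in both intervals (-0.29 and -0.25). GPI, which converts glucose 6-phosphate, fell by 0.11 (FDR 0.0398), a call lost under other scalings, without the 2 shallow libraries or without most single fish. CKB, the brain creatine kinase and the fifth most abundant member, had medians of 3669 RPM at 108 dph and 3372 RPM at 39 dph and a log2 fold change of 0.03 ± 0.06 (FDR 0.725). The enolase ENO1 and the phosphofructokinase PFKP did not pass either, with -0.02 ± 0.04 (FDR 0.704) and -0.16 ± 0.07 (FDR 0.0683). GAPDHS, a glyceraldehyde 3-phosphate dehydrogenase that is not in the list, gave -0.07 ± 0.06 (FDR 0.372). Of the 22 tested genes of the list, 2 were higher and 13 lower.

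The ion pumps, which spend much of a neuron's ATP, had 3 members. Of these, 1 fell between 39 and 108 dph (against 19% of all genes). Over all 125 tested genes of the list of pumps, channels and receptors 36 were higher and 33 lower. The calcium pumps ATP2B2 and ATP2B3 did not pass, with 0.12 ± 0.09 and -0.05 ± 0.06.

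Synaptic vesicle transcripts split. Of 9 members, 4 fell between 39 and 108 dph, 1 rose and 4 did not pass, against 19% of all genes in each direction. The member locus of SNAP25 (Nfu_g_1_017443), a SNARE protein of the plasma membrane that drives vesicle fusion, was the one that rose. A second locus called SNAP25 lies outside the members (Nfu_g_1_022084, median 217 RPM) and did not pass (-0.05 ± 0.14, FDR 0.837). The values that follow are those of the member locus. That locus had 1659, 1763 and 1936 RPM at 39 dph, 2049, 2143 and 2278 RPM at 73 dph and 1791, 2127 and 2253 RPM at 108 dph. All fish of 73 dph were above all of 39 dph, those of 108 dph overlapped both, and the log2 fold changes were 0.23 ± 0.04 for 108 over 39 dph (FDR 1.36e-04) and 0.25 ± 0.04 for 73 over 39 dph (FDR 1.16e-04). SNAP91, which assembles clathrin for vesicle retrieval, fell most and had 638, 754 and 784 RPM at 39 dph, 615, 642 and 696 RPM at 73 dph and 526, 595 and 679 RPM at 108 dph. The ranges of 108 and 39 dph overlapped, with a log2 fold change of -0.33 ± 0.05 (FDR 4.60e-06). SNCB, a synuclein, fell by 0.27 (FDR 6.36e-04), and ATP6V0C, of the proton pump that loads vesicles, by 0.21 (FDR 0.00242). NSF, which takes SNARE complexes apart, fell by 0.20 (FDR 0.0296), a call lost under total reads or when 1 fish was left out, for 39 dph female replicates 1 and 2, 39 dph male replicates 2 and 3, 108 dph female replicates 2 and 4 and 108 dph male replicates 1 and 2. The vesicle protein SYP had a log2 fold change of -0.02 ± 0.05. Over all 72 tested genes of the list, 14 were higher and 22 lower. In bulk tissue, fewer cells of a type and less RNA per cell cannot be told apart, here and in every group that follows.

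Of 5 cytoskeletal members, 4 were called lower at 108 dph (3 with other scalings), against 19% of all genes. The fifth, the spectrin SPTAN1, had -0.05 ± 0.04. DPYSL3, a microtubule-binding protein of growing axons, measured 614, 680.0 and 739 RPM at 39 dph, 489, 566 and 618 RPM at 73 dph and 420.5, 514 and 534 RPM at 108 dph. No fish of 108 dph reached the lowest fish of 39 dph, and the log2 fold change was -0.46 ± 0.05 (FDR 1.30e-07). MARCKSL1, an actin-binding substrate of protein kinase C, had 611, 631 and 648 RPM at 39 dph, 544, 562 and 609 RPM at 73 dph and 446, 489 and 648 RPM at 108 dph. All but 1 fish of 108 dph lay below all of 39 dph, and the level fell by 0.32 (FDR 4.99e-05). The cofilin CFL2, which the annotation calls CFL1, had -0.24 ± 0.05 (FDR 5.48e-04), and the kinesin KIF5A -0.11 ± 0.04 (FDR 0.046), a call lost under other scalings and without most single fish. All 54 tested genes of the list comprised 7 higher and 29 lower.

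The calcium signalling group had 3 members, among them S100B, a calcium-binding protein of glia. All 3 fell between 39 and 108 dph, against 19% of all genes, and leaving out 1 fish gave 2 to 3 falls. The call of S100B was lost in some of these fits, and S100B is counted again in the astroglial group below. Of the 18 tested genes of that list, 1 was higher and 7 were lower.

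**Figure D4:**
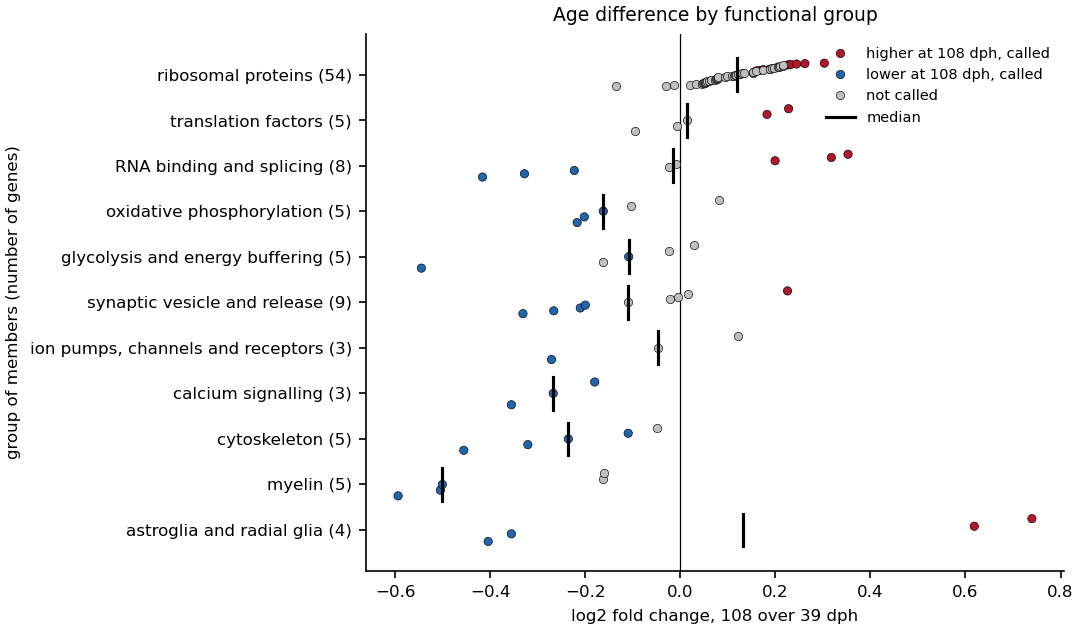
Log2 fold change of 108 over 39 dph of the members in each of 11 functional groups, 1 point per gene, with the group median as a bar; red and blue points were called higher and lower at 108 dph at an FDR of 0.05 and grey points were not called. Ribosomal proteins lie mostly above 0 (median 0.12) and the 5 myelin genes all below it (median −0.50).

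Of 5 myelin members, 3 fell between 39 and 108 dph (against 19% of all genes) and the other 2 also had negative fold changes. Together they took 0.954 ± 0.0864% of reads in females of 39 dph and 0.685 ± 0.103% in those of 108 dph. In males the shares were 0.727 ± 0.128% and 0.690 ± 0.195% (SD, n = 4 each). These shares were not tested. One locus called MBP, a cytoplasmic protein that compacts myelin, had 951, 1562 and 1959.9 RPM at 39 dph, 993, 1224 and 1547 RPM at 73 dph and 661, 1045 and 1542 RPM at 108 dph. The ages overlapped over much of their ranges, and the locus fell by 0.50 ± 0.15 (FDR 0.0105). The other MBP locus did not pass (-0.16 ± 0.16, FDR 0.451). GPM6B, a proteolipid of neurons as well as of oligodendrocytes in mammals, fell by 0.51 ± 0.10 (FDR 2.10e-04).

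Of the 14 tested genes of the list, 9 were lower and none higher. Of 10 oligodendrocyte marker loci, 5 were lower and none higher, and their summed level lay between 4569 and 9596 RPM at 108 dph and between 4943 and 10485 RPM at 39 dph. The part of cell number in the myelin values was not tested.

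Members of the astroglial list went both ways, 2 up and 2 down of 4, against 19% of all genes in each direction. GFAP, the intermediate filament of radial glia and astrocytes, measured 309, 799 and 1082 RPM at 39 dph, 871, 1184 and 2132 RPM at 73 dph and 876, 1262 and 2362 RPM at 108 dph. The spread within an age was wide, the highest fish of 39 dph was above the lowest of 73 and 108 dph, and the log2 fold change was 0.74 ± 0.22 (FDR 0.0106). It was higher at 73 dph as well (0.73 ± 0.22 over 39 dph, FDR 0.0214), and it was not called between 108 and 39 dph in either sex alone. NDRG4, kept in this list although neurons express it in mammals, was not among the astroglial markers, so its rise is not evidence on glia. It had 1737, 1948 and 2255 RPM at 39 dph, 2177, 2717 and 3155 RPM at 73 dph and 2778, 3127 and 3269 RPM at 108 dph. Here every fish of 108 dph was above every fish of 39 dph, and the log2 fold change was 0.62 ± 0.06 (FDR 8.64e-08).

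S100B, counted in both the calcium and the astroglial group and the sixth most abundant member, had 3109, 3879 and 4843 RPM at 39 dph, 2474, 2956 and 3762 RPM at 73 dph and 2449, 2705 and 4699.7 RPM at 108 dph. Its ages overlapped and the fall of 0.36 ± 0.13 (FDR 0.0318) was lost when 1 fish was left out, for 39 dph female replicates 1 and 2, 39 dph male replicates 1 and 3, 108 dph female replicates 1 to 3 and 108 dph male replicates 2 and 4. FABP7, a fatty acid carrier of radial glia that the annotation calls SMPDL3A, had 1024, 1318 and 1855 RPM at 39 dph, 1209, 1446 and 1638 RPM at 73 dph and 690.2, 882 and 1751 RPM at 108 dph. With -0.40 ± 0.16 (FDR 0.0499) it lay at the threshold and was not called under total reads, under DESeq2's size factors or without most single fish. Of 11 astroglial marker loci, 5 were higher and 4 lower at 108 dph, with sums of 5163 to 9464 RPM at 108 dph and 5552 to 8106 RPM at 39 dph.

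RNA-binding members were also divided, 3 up, 3 down and 2 not called, against 19% of all genes in each direction. RBM5, a regulator of splicing, had 756, 838 and 907 RPM at 39 dph, 1043, 1124 and 1204 RPM at 73 dph and 990.3, 1090.1 and 1292 RPM at 108 dph. The fish of 39 dph were below all others, and the log2 fold change of 108 over 39 dph was 0.35 ± 0.05 (FDR 7.39e-06). YBX1, a cold shock domain protein that binds mRNA, had 1254, 1378 and 1500.1 RPM at 39 dph, 1340.0, 1580.0 and 1857 RPM at 73 dph and 1582, 1713 and 1949.7 RPM at 108 dph. Its oldest fish were all above its youngest (0.32 ± 0.06, FDR 1.10e-04), as were those of the cold-inducible CIRBP (0.20 ± 0.05, FDR 0.00213).

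The helicase DDX5 had 1242, 1406 and 1535 RPM at 39 dph, 743, 1169 and 1384 RPM at 73 dph and 879, 959.8 and 1732 RPM at 108 dph. A single fish of 108 dph, female replicate 1, exceeded all of 39 dph, and DDX5 fell by 0.42 ± 0.12 (FDR 0.00649). Of the 2 loci called HNRNPA3, a nuclear RNA-packaging protein, Nfu_g_1_010245 fell without overlap of the oldest and youngest fish (-0.33 ± 0.04, FDR 4.75e-07), and the other, which the annotation calls HNRNPA0, did not pass (-0.02 ± 0.05). SF3B1, of the spliceosome, fell by 0.22 (FDR 0.0157), a call lost without the 2 shallow libraries or without 108 dph male replicate 1. Of 87 tested genes of the list 19 were higher and 40 lower. HMGB1, an abundant chromatin protein, measured 433, 483 and 526 RPM at 39 dph, 768, 871 and 918 RPM at 73 dph and 686, 712 and 801 RPM at 108 dph. Its youngest fish were below all others, with log2 fold changes of 0.81 ± 0.05 for 73 over 39 dph (FDR 6.88e-11) and 0.58 ± 0.05 for 108 over 39 dph (FDR 3.31e-09).

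The largest age differences among the members belonged to 3 members outside these groups. FBRS, fibrosin, is a partner of Polycomb complexes in mammals, and the annotation calls this locus AL929039.2. It had 128, 143 and 163 RPM at 39 dph, 563, 639.6 and 779 RPM at 73 dph and 414, 613 and 732 RPM at 108 dph. The fish of 39 dph formed a separate low group and those of 73 and 108 dph overlapped. The rise to 108 dph was 4.09-fold against 39 dph (log2 2.03 ± 0.09, FDR 5.90e-13), and the difference between 108 and 73 dph did not pass (-0.13 ± 0.09, FDR 0.391). JARID2, which guides a Polycomb repressive complex, had 156, 183 and 249 RPM at 39 dph, 795, 1020.4 and 1166 RPM at 73 dph and 560.5, 604 and 755 RPM at 108 dph. It was lowest at 39 dph in every fish and peaked at 73 dph. Its log2 fold changes were 2.34 ± 0.11 for 73 over 39 dph (FDR 1.03e-12), -0.70 ± 0.11 for 108 over 73 dph (FDR 3.12e-04) and 1.65 ± 0.11 for 108 over 39 dph (FDR 1.04e-10).

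ARRDC3, an arrestin-domain protein that sorts membrane receptors, had 213, 273 and 324 RPM at 39 dph, 484, 573 and 662 RPM at 73 dph and 819, 1039 and 1639 RPM at 108 dph. No 2 ages overlapped. It rose in both intervals, by 1.09 ± 0.10 (FDR 5.28e-08) and then 0.89 ± 0.10 (FDR 6.38e-06), and was 3.94-fold higher at 108 than at 39 dph (FDR 7.94e-13). At 39 dph the medians of FBRS, JARID2, ARRDC3 and HBG1 (143, 183, 273 and 383 RPM) lay below the 554.8 RPM of the last member. Their level in older fish thus brought them in, and the same holds for HMGB1, AMD1, PSAP and RPL36. Among the members called lower, CLK1, DPYSL3 and MARCKSL1 had medians at 108 dph below that border, so their level in younger fish brought them in.

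**Figure D5:**
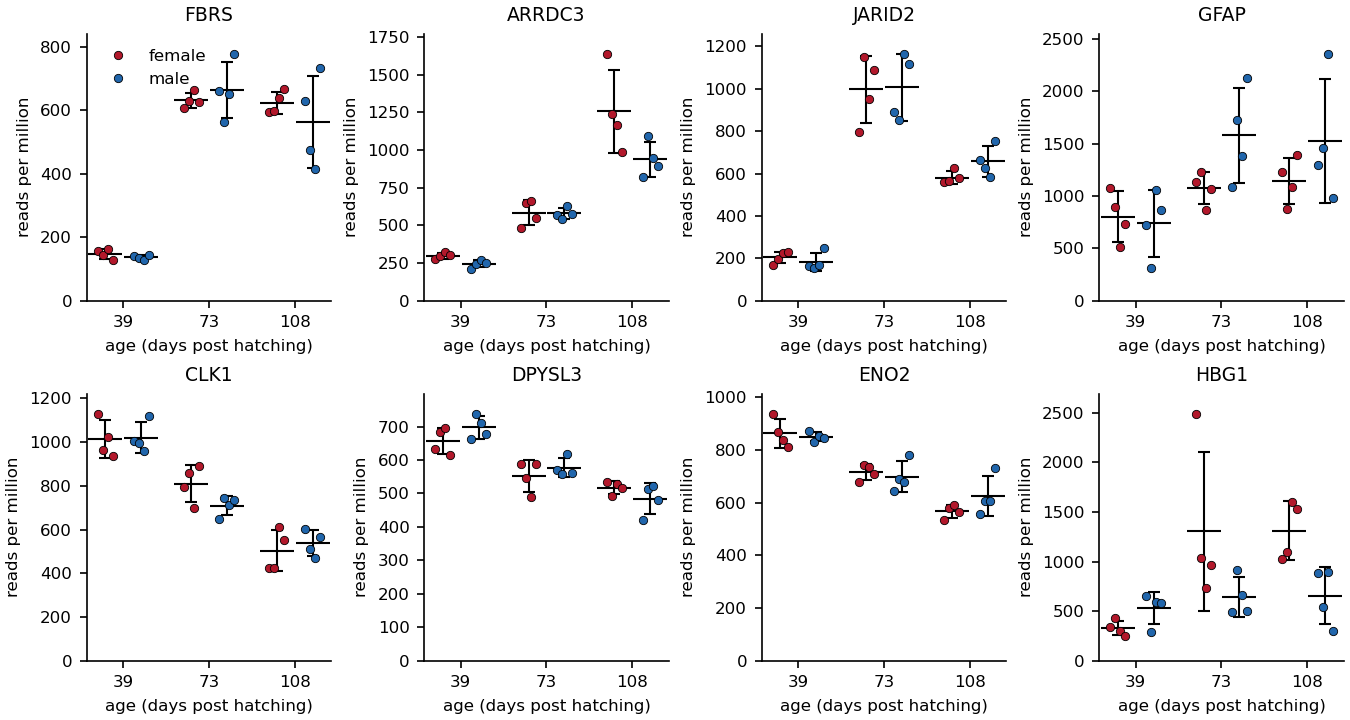
RPM of 8 members in each of 24 fish, by age in days post hatch, with females in red and males in blue and the mean and SD of each 4 fish as bars, on axes that start at 0. FBRS, JARID2 and ARRDC3 are lowest in the fish of 39 dph, CLK1 and ENO2 are highest there.

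CLK1, a kinase of splicing factors that the annotation calls CLK4A, fell furthest. It measured 937, 1000.9 and 1131 RPM at 39 dph, 647, 740.3 and 891 RPM at 73 dph and 426, 533 and 611 RPM at 108 dph. No fish of 108 dph overlapped with 73 or 39 dph, and the log2 fold changes were -0.99 ± 0.08 for 108 over 39 dph (FDR 3.63e-09), -0.44 ± 0.08 for 73 over 39 dph (FDR 5.08e-04) and -0.55 ± 0.08 for 108 over 73 dph (FDR 2.30e-04). AMD1, which makes the precursor for polyamines, had 424, 439.9 and 466 RPM at 39 dph, 539, 603 and 648 RPM at 73 dph and 605, 678 and 796 RPM at 108 dph. The oldest and youngest fish were apart and the log2 fold change was 0.61 ± 0.06 (FDR 1.17e-08). PSAP, the precursor of lysosomal saposins, had 448, 537 and 591 RPM at 39 dph, 576, 599.7 and 665 RPM at 73 dph and 618, 698 and 796 RPM at 108 dph. Its oldest fish were likewise above its youngest (0.41 ± 0.06, FDR 3.65e-06), and among all 17 tested genes of the lysosome and iron list 14 were higher and none lower.

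Other members outside the groups moved less. CCNG1, cyclin G1, rose by 0.32 ± 0.09 (FDR 0.00509), with a call in the second interval (0.31 ± 0.09, FDR 0.0251). NFIX, a transcription factor of glial and neural progenitors in mammals, fell by 0.31 ± 0.06 (FDR 1.05e-04), and DEDD2, of the death effector domain family, by 0.30 ± 0.07 (FDR 0.00194). RTN1, a reticulon of the endoplasmic reticulum, fell by 0.11 ± 0.04 (FDR 0.0212), a call lost under total reads or without 39 dph female replicate 1 or 108 dph male replicate 2, and SCG2, a granin of secretory granules, by 0.25 ± 0.09 (FDR 0.0336), a call lost under total reads, without the 2 shallow libraries or without 1 fish in 11 cases. EPDR1, the second most abundant member, had 5945, 6363 and 8567 RPM at 39 dph, 3900.1, 5292 and 6717 RPM at 73 dph and 3935, 5695 and 6755 RPM at 108 dph. Its oldest and youngest fish overlapped and their difference did not pass (-0.27 ± 0.12, FDR 0.0786), nor did that of the chaperone HSP90AB1 (-0.29 ± 0.17, FDR 0.179).

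HBG1, a haemoglobin chain, marks blood rather than brain cells. The member locus Nfu_g_1_007654 had 254, 383 and 648 RPM at 39 dph, 492, 821 and 2489.6 RPM at 73 dph and 299, 961 and 1596 RPM at 108 dph. The ages overlapped widely, and the log2 fold change was 1.05 ± 0.32 (FDR 0.0118). In females it was 1.97 ± 0.33 (FDR 0.0015) and in males 0.31 ± 0.34 (FDR 0.57), and the interaction of sex with age did not pass (FDR 0.877). Of 7 blood marker loci, 5 were higher and none lower at 108 than at 39 dph. Their sums were 489 to 1060 RPM at 39 dph, 869 to 3827 RPM at 73 dph and 686 to 2479 RPM at 108 dph. Every blood marker locus was above 0 in every fish, and the part of retained blood in the members' values was not tested. APOA1 and AHSG, plasma proteins made by the liver in mammals, were members with medians of 1754 and 1972 RPM, and neither passed (0.23 ± 0.13 and 0.22 ± 0.12).

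Members without a name were called in 18 of 55 cases, 5 higher and 13 lower at 108 dph (32.7%, against 38% of all genes and 26.3% of tested genes without a name). With total reads the split was 7 and 10, and without the 2 shallow libraries 3 and 10. Leaving out 1 fish gave 4 to 8 higher (8 without 108 dph male replicate 4) and 8 to 13 lower (8 without 108 dph female replicate 4). The leading locus Nfu_g_1_019825 had 7723, 8259.5 and 14386 RPM at 39 dph, 6300.3, 7028 and 7439.8 RPM at 73 dph and 6141, 6607 and 7807 RPM at 108 dph. Its top value came from the shallowest library, 39 dph female replicate 4, and the next fish of that age had 8749 RPM. The falls that follow include that library, which raises the level at 39 dph. The locus fell by 0.42 ± 0.10 (FDR 0.00242), and by 73 dph already (-0.38 ± 0.10, FDR 0.0107). Nfu_g_1_015310 showed the largest fall among the unnamed and had 1172, 1243 and 1320.3 RPM at 39 dph, 679, 838 and 988 RPM at 73 dph and 439, 645 and 821 RPM at 108 dph. No fish of 108 dph or 73 dph reached those of 39 dph (-0.93 ± 0.10, FDR 1.32e-07). Nfu_g_1_007528 also fell (-0.46 ± 0.16, FDR 0.0243), a call lost without 39 dph female replicate 4, 39 dph male replicate 1, 108 dph female replicate 1 or 108 dph female replicate 4. Among those called, the largest rises were those of Nfu_g_1_006794 (0.51 ± 0.15, FDR 0.0113) and Nfu_g_1_009981 (0.30 ± 0.09, FDR 0.00759). Nfu_g_1_020367, of rank 3, did not pass (-0.18 ± 0.14).

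All 75 members called between 108 and 39 dph had the same sign in each sex fitted alone, as did 99.8% of all called genes. These genes were chosen by a call over both sexes together, so agreement of sign is largely built in. With 4 fish per age in each sex, 54 members were called in females (27%, against 23.8% of all genes) and 26 in males (13%, against 19.1%), of which 21 were in both, and the difference between the sexes was not called for any member. Of the interaction terms, 0 of 200 passed in edgeR or DESeq2, and 6 had an unadjusted p below 0.05 (3%, against 5.35% of all genes). Of all genes 0.00517% passed in edgeR and 0.0155% in DESeq2. The smallest interaction p was that of MARCKSL1. It had a log2 fold change of -0.47 ± 0.04 in females and -0.16 ± 0.08 in males for 108 over 39 dph (interaction FDR 0.877).

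No member passed the test between females and males. In edgeR 0 of 200 were called, against 0.0517% of all genes (10 genes), and 10 members had an unadjusted p below 0.05 (5%, against 7.46% of all genes). DESeq2 also called 0 (against 0.26% of all genes). ARRDC3 had the smallest p. Its females had 275, 597 and 1639 RPM (lowest, median and highest of 12) and its males 213, 573 and 1094 RPM. The sexes overlapped, with a log2 fold change of 0.25 ± 0.08 (FDR 0.453). MARCKSL1 followed with -0.14 ± 0.04 (FDR 0.453) and SERINC1, which serves serine incorporation into lipids, with -0.23 ± 0.09 (FDR 0.596).

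Fish of 1 age and sex differed little in most members. In 158 members the highest and lowest of all 24 fish were within 2-fold, and in 11 they were more than 4-fold apart. The steadiest were HNRNPA3 (Nfu_g_1_010245), GPI and RTN1, with a within-group SD of 0.06 log2 for RTN1. PTPRF, a receptor tyrosine phosphatase, varied most, with an SD of 0.62 log2. Its levels were 406, 544 and 951 RPM at 39 dph, 106, 643 and 775 RPM at 73 dph and 547, 877 and 1109 RPM at 108 dph. The lowest fish, 73 dph male replicate 4, was also the lowest in NEUROD1, a transcription factor of neuronal differentiation, with 183 RPM against a median of 832 RPM at that age, and in SPA17, with 214 RPM against 485 RPM. None of PTPRF, NEUROD1 and SPA17 passed between 108 and 39 dph (0.45 ± 0.25, 0.48 ± 0.21 and -0.40 ± 0.22). Without 73 dph male replicate 4, PTPRF and NEUROD1 passed (0.45, FDR 0.0301 and 0.49, FDR 0.00142).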

How the data were processed

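Whole-brain poly(A) RNA of 24 wild fish was sequenced by the authors as stranded single-end libraries. Per the labels and the study's methods, reads were converted with bcl2fastq 1.8.4, aligned by TopHat2 2.1.0 (hardmasked NFINgb genome, at most 1 place per read) and counted on the sense strand with featureCounts 1.5.0 (versions from the submitters' processing notes). The deposited counts per gene are whole reads. The deposited RPM values were each count scaled to the library total and matched a recomputation with a largest difference of 4.91e-11. The deposited RPKM, which further divides by gene length, was used for levels between genes and for lengths.

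Groups came from the age and sex labels of each library. Each library is 1 fish, so p-values measure the spread between fish. Counts were tested with edgeR 4.0.16 (quasi-likelihood F test, R 4.3.3) with TMM scaling, on genes passing filterByExpr with a minimum count of 10 (19358 of 26739 genes, of which 3759 had no reads), in an additive model of sex and age over all 24 fish. A second model held the interaction, and each sex was also fitted alone. P-values were adjusted over all tested genes (Benjamini-Hochberg FDR, threshold 0.05). The standard error is the log2 fold change divided by the square root of F. The test was tried on simulated counts with known changes. Shares were given without a test. DESeq2 1.42.0, other scalings, filters, member rules and leaving out each fish were the alternatives. Python 3.11.15 was used for summaries.

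Symbols are human orthologue names taken from the study's supplementary lists, names only, and 13 members have another symbol in the annotation. Named were, among members with a name, the 15 most abundant, the 15 largest rises and 15 largest falls between 108 and 39 dph at an FDR below 0.05, the 5 largest of each for the other intervals, the 3 smallest p-values for sex and for the interaction, the 5 most and 5 least variable genes and up to 6 examples per list, and among those without a name the 2 largest rises, the 2 largest falls and the 2 most abundant, and the text gives a selection of these. The members, the gene lists and the tests were chosen with earlier results of these data known. Some named genes are not reported here.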

Additional observations from a re-analysis of the deposited data

Results flagged for a closer look

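Samples standing apart from the other fish of their group were sought in 162 groups, of which 22 (13.6%) held one. The cutoff flags about 5% of groups when values are independent and normally distributed. Here the genes were picked and share the same fish, so 5% is not the chance rate of this search. The flags concern the totals of the libraries and the RPM of genes among 48 examined, and no cause was tested for any of them.

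Total assigned reads were 4595506 in 39 dph female replicate 4, where the next female of that age had 17582640, and 10019750 in 39 dph male replicate 4, where the next male had 17631841. The shallowest library also held the highest value of the leading locus Nfu_g_1_019825 at 39 dph, 14386 RPM. At 39 dph, EPDR1 was highest in male replicate 1 (8567 RPM). Female replicate 1 was highest at that age in RPL36 (648 RPM), ENO2 (938 RPM) and Nfu_g_1_006794 (3329.9 RPM).

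At 73 dph, male replicate 4 was highest in CKB (4317 RPM) and FBRS (779 RPM), and female replicate 1 in HBG1 (2489.6 RPM). DDX5 was lowest in male replicate 1 (743 RPM), Nfu_g_1_009981 was highest in male replicate 2 (858 RPM) and Nfu_g_1_007528 in female replicate 2 (781 RPM).

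At 108 dph, male replicate 1 was lowest in SNAP25 (1791 RPM) and DPYSL3 (420.5 RPM) and highest in RPL36 (974 RPM) and Nfu_g_1_009981 (1103 RPM). Male replicate 3 was highest in GFAP (2362 RPM) and lowest in HNRNPA3 (Nfu_g_1_010245, 520.4 RPM). Male replicate 4 was highest in ENO2 (731 RPM) and NFIX (709 RPM), and female replicate 1 in DDX5 (1732 RPM).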

How the results depend on the processing

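No paired analysis was possible because replicate numbers were given in accession order and pair no fish. Of the named fold changes, 98 passed the test and 35 did not. Over 4389 alternative values of these, 4050 kept their side of the threshold, 327 lost the call and 12 gained one. None of the 98 that passed changed sign, and for the 35 others the sign was not compared. The settings with the most losses were the fits of 1 sex alone, 40 in females and 64 in males.

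At an FDR of 0.01 the share of members called was 22.5% (45) between 108 and 39 dph, 9.5% (19) between 73 and 39 dph and 4% (8) between 108 and 73 dph, against 26.4, 10.9 and 2.97% of all genes. Between 108 and 73 dph it was 3% for the 100 most abundant genes, against 9.27% of all genes at the FDR of 0.05. For female over male it was 0.5% when genes were ranked by RPKM and 0.25% for the 400 most abundant. Without the 2 shallow libraries, both of 39 dph, 63 members (31.5%) were called between 108 and 39 dph at the FDR of 0.05, 27 higher and 36 lower. In that fit 6848 of 19472 tested genes were called. Between 73 and 39 dph it called 30 members (15%) and 3286 genes, and between 108 and 73 dph 23 members (11.5%) and 1709 genes. Leaving out 1 fish gave 29.5 to 45% between 108 and 39 dph (lowest without 108 dph female replicate 4, highest without 108 dph male replicate 4), 15.5 to 23% between 73 and 39 dph, 6.5 to 16.5% between 108 and 73 dph and 0 to 0% for female over male and for the interaction. The members called higher between 108 and 39 dph ranged from 25 to 48 and those called lower from 34 to 42.

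Shares of reads by another rule are given for 39, 73 and 108 dph and for females and males, in that order. The first 200 by RPKM took 18.91, 18.90, 19.17, 19.04 and 18.94%, the first 100 by RPM 15.92, 15.89, 16.03, 16.02 and 15.87%, the first 400 31.0, 31.1, 31.2, 31.1 and 31.1% and ranks 11 to 200 18.19, 18.80, 18.95, 18.72 and 18.57%. As a share of summed RPKM the members took 31.8, 32.6, 33.0, 32.6 and 32.3%. Without 1 fish the shares lay at 22.3 to 22.6, 22.4 to 22.8, 22.5 to 23.1, 22.6 to 22.8 and 22.4 to 22.7%.

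The cause of these changes was not tested beyond the smaller number of fish or the stricter threshold that the alternatives set by construction. With 4 fish per age and sex, small interactions can go uncalled, and the members' counts are deep enough that the spread between fish, not counting error, sets the precision.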

Other observations

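Some loci outside the members matched them in single fish. The most abundant gene of 39 dph female replicate 4 was Nfu_g_1_002091, with 14843 RPM. In the other 23 fish it had 0.524 to 1593 RPM with a median of 5.42 RPM, and its rank over all fish was 13599. The pituitary hormone gene GH1 lay between 1.87 and 4312 RPM over the 24 fish, and the medians of the ages were 7.96 RPM at 39 dph, 34.6 RPM at 73 dph and 23.9 RPM at 108 dph.

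The unnamed members Nfu_g_1_007730 and Nfu_g_1_007614 had their highest value in the same fish as HBG1 (Nfu_g_1_007654), 73 dph female replicate 1. Their log2 fold changes of 108 over 39 dph were 1.32 and 1.41 in females and -0.09 and -0.06 in males, and the interaction did not pass for either in edgeR (FDR 0.877 and 0.877).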
